A study of Vitis vinifera with 6 samples.

Results

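In berry skin of the grape cultivar Pinot Noir, 150 gene models with a clear signal in the dark fell to between 12.8% and 35.3% of their dark level after 1 hour of ultraviolet-C (UV-C) light. They were chosen from 29549 probe sets on the array, each standing for 1 annotated gene model. A gene model was kept if its log2 intensity, with each array's median subtracted, averaged at least 1.5 lower in the UV arrays than in the dark arrays, which is a fall of 2.83-fold or more. It also had to lie above a background limit on all 3 dark arrays, drawn 2 SD over the average of that array's 19605 random-sequence probes. Of 157 models that met both conditions, 6 in a block of neighbours on chromosome 3 and 1 on unpositioned sequence of chromosome 18 were set aside. Because all 6 arrays chose these models, their fall is described and not tested. The percentages keep background in the signal, and 2 of the 150 models were not above the limit on any UV array.

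The UV group had 3 samples of Vitis vinifera, cultivar Pinot Noir, from grape clusters placed 50 cm from a lamp emitting at 253.7 nm for 1 hour. The dark group had 3 samples, covered with a box beside the lamp for the same time. The labels call all samples wild-type and give each a cluster of its own. The box kept out all light, and the labels do not say what other light reached the irradiated clusters. For berry age and for the delay between irradiation and sampling, nothing is stated in those labels.

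UV-C is the short, germicidal band of ultraviolet light, which nucleic acids absorb strongly. The skin is the berry's outer layer, where pigments and many defence compounds collect, and grape tissue under UV-C is known for switching on the synthesis of stilbenes such as resveratrol. The amount of a transcript is set by how fast it is made and how fast it decays, and an array reads only the amount. Total RNA of whole skin was hybridised, so fewer cells of a type and less of a transcript per cell cannot be told apart. The identifiers matched 0 of 29591 entries of the reference gene table. The models are therefore described by chromosome, annotation block and running number, without functions, and the tissue could not be checked against marker genes.

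The arrays held 8967 to 11200 units of median intensity, and 84.3% to 88.8% of the probe sets lay above the limit on a single array. In all, 25512 sets lay above it on all 3 dark arrays. All 6 arrays shared 1 slide, with the UV and the dark arrays on separate neighbouring positions, so position and group cannot be told apart.

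The lowered models kept a median of 28.5% of their dark level. The median change was -1.81 on the log2 scale, a 3.51-fold drop, with quartiles at -2.08 and -1.65. In 53 models the change was -2 or lower, and in 12 it was -2.5 or lower, while the other 97 lay between -1.5 and -2. None was at -3 or lower on this scale, which keeps background in the signal; with background subtracted, as in the limma fit, 7 were, 5 of them above the limit on all UV arrays. Among models detected in the dark, 628 were higher by 1.5 or more after UV, 4.19 for each lowered one. Both counts varied with dark level. In 4 equal bins of dark level, dimmest first, 6, 66, 46 and 32 models were lowered. In the same bins 338, 249, 41 and 0 were higher by 1.5 or more. The brightest bin began at 29438 units in the dark, and no set on any array read above 63020 units. A rise of 1.5 was therefore out of reach there. Background in the signal likewise limits falls in the dimmest bin, so the ratio depends on the range of the scale. Near the threshold, the 3 models just inside it changed by -1.504, -1.508 and -1.510, and the 3 just outside it by -1.499, -1.495 and -1.493, so the boundary separates models with nearly equal falls. A further 397 models fell by between 1 and 1.5. The counts of 628 and 397 leave out the block of neighbours on chromosome 3 and unpositioned sequence of chromosome 18.

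Every lowered model was below dark on all 3 UV arrays. Complete separation of that kind was found for 25.2% of all probe sets. In a limma fit across the array all 150 were called lower, against 20.9% of all sets, a count that the choice of models fixes. Without dark replicate 2 the number of falls called over the whole array was 3986 in place of 6162.

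The lowest change was that of CHR18_JGVV1_309_T01, model 309 of block 1 on chromosome 18. It had 1106, 1956 and 1080 units in UV replicates 1, 2 and 3, against 13386, 9062 and 12227 units in dark replicates 1, 2 and 3. It kept 12.8% of its dark level, a change of -2.96, and only UV replicate 2 was above the background limit, so the size of the drop depends on how background is treated. With background modelled and subtracted, as in the limma fit, the same model changed by -3.65 (SE 0.29).

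Almost level with it was CHR5_JGVV29_75_T01, model 75 of block 29 on chromosome 5. It had 2300, 4165 and 2790 units in the UV samples, against 30690, 23806 and 22910 units in the dark samples. Its change was -2.96 and it stayed above the limit on all UV arrays.

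**Figure D1:**
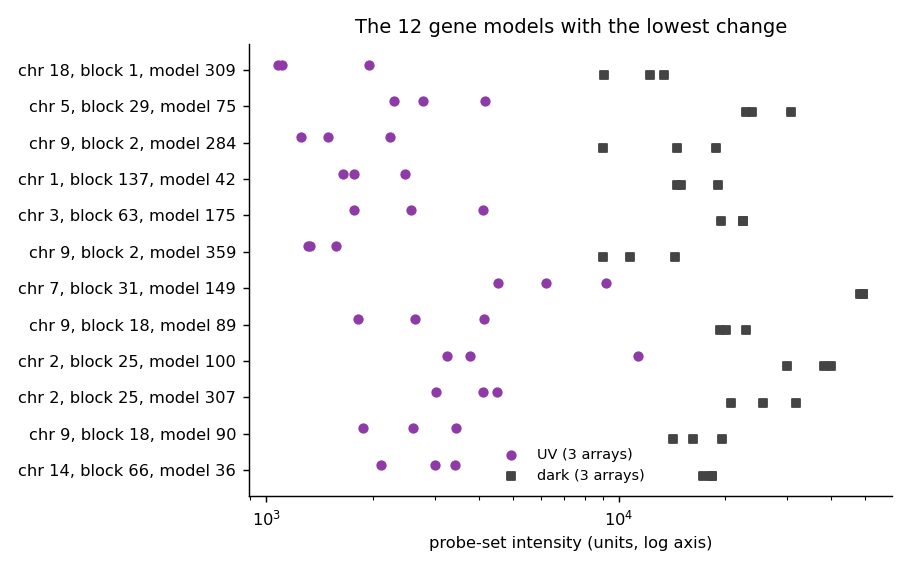
Probe-set intensity (units, log axis) of the 12 gene models with the lowest change, in the 3 UV samples (circles) and the 3 dark samples (squares), with 1 row per model. In every row all UV points lie left of all dark points.

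The next models in order of size lay on chromosomes 9, 1 and 3. Model 284 of block 2 on chromosome 9 had 1250, 2244 and 1498 units in the UV samples, against 9031, 14617 and 18834 units in the dark samples, a change of -2.93. UV replicate 1 was below that array's limit of 1306 units, so this change depends on background as well, and with background subtracted it was -3.47. Model 42 of block 137 on chromosome 1 had 1649, 2471 and 1770 units in the UV samples, against 14610, 19094 and 15021 units in the dark samples, a change of -2.92. Model 175 of block 63 on chromosome 3 had 1774, 4127 and 2580 units in the UV samples, against 22509, 22478 and 19508 units in the dark samples, a change of -2.87. The groups lay far apart in all 3 models, while UV replicate 2 kept the most signal each time.

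The next models differed in the level left after UV. Model 359 of block 2 on chromosome 9 fell to a narrow range near background, with 1309, 1572 and 1332 units in the UV samples, against 14389, 9010 and 10771 units in the dark samples. Model 149 of block 31 on chromosome 7 was bright in the dark and stayed well above the limit, with 4531, 9217 and 6214 units in the UV samples, against 49248, 48337 and 49304 units in the dark samples. Its change of -2.80 was close to the -2.86 of the chromosome 9 model. Model 100 of block 25 on chromosome 2 had the widest spread of the 12 after UV, with 3251, 11295 and 3777 units in the UV samples, against 38154, 29896 and 40019 units in the dark samples. UV replicate 2 stood well above the other UV samples there, and the groups still did not overlap.

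The other 4 of the 12 lowest changes ranged from -2.80 to -2.55. They were models 89 and 90 of block 18 on chromosome 9, model 307 of block 25 on chromosome 2 and model 36 of block 66 on chromosome 14. Their mean levels were 2639 to 3895 units in the UV samples and 16693 to 26078 units in the dark samples.

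The brightest lowered models stood near the top of the scanner's range in the dark. Model 422 of block 20 on chromosome 5 had 11126, 21215 and 18451 units in the UV samples, against 54167, 51014 and 52771 units in the dark samples, where the brightest set of any array read 63020. Model 2 of block 399 on unplaced sequence had 7115, 21424 and 11042 units in the UV samples, against 53019, 50072 and 54412 units in the dark samples. The other 3 of the 5 brightest were model 35 of block 87 and model 115 of block 12 on chromosome 2 and model 373 of block 0 on chromosome 17, with changes between -1.75 and -1.52. Over 50000 units were reached by 8, 3 and 6 lowered models in dark replicates 1, 2 and 3, and by 0 in each UV sample. Whether the scanner's limit shortened their measured falls was not tested.

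In the dark samples most lowered models read well above background. A set's brightness also depends on its probes, so the order of levels below is one of probe sets. Their median intensity was 2462, 4200 and 3116 units in UV replicates 1, 2 and 3, against 16201, 13967 and 15761 units in dark replicates 1, 2 and 3. All models detected in the dark had medians of 12408, 12762 and 12782 units in the UV samples, against 14922, 12289 and 14212 units in the dark samples. On a given dark array 40.0% to 41.2% of all sets were brighter than the median lowered model, and on a given UV array 66.3% to 72.7% were. A fall of 1.5 from a dark level under 2.83 times the limit ends at background, which was the case for 21.1% of the models detected in the dark, and only 4 lowered models started that low. In the 4 bins of dark level the median change of the lowered models was -1.67, -1.77, -1.95 and -1.80, dimmest first. With background subtracted it was -2.42, -2.07, -2.11 and -1.90, so the dimmest bin had the smallest median fall on 1 scale and the largest on the other.

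**Figure D2:**
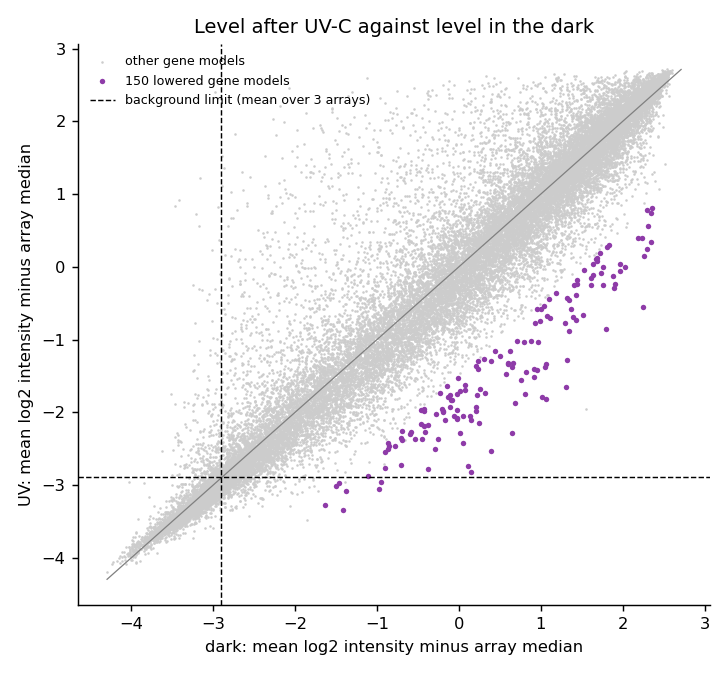
Mean log2 intensity minus the array median after UV (vertical axis, 3 arrays) against the same in the dark (horizontal axis, 3 arrays) for each gene model, with the 150 lowered models in colour, the background limits as dashed lines and equality as a solid line. The lowered models run parallel to the line of equality over most of the range, and 8 of them were above the limit on at most 1 UV array; the few grey points beyond them are the models set aside.

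Most lowered models could still be detected after UV. Of the 150, 134 (89.3%) stayed above the limit on all 3 UV arrays, 8 on 2 of them, 6 on 1 and 2 on none. Among all models detected in the dark, 95.9% stayed above it on all 3 UV arrays. The median lowered model stood at 2.63 times the limit in the UV samples and 11.2 times the limit in the dark samples, and 54 models were under 2 times the limit in the UV samples against 0 in the dark samples. Loss was uneven over the arrays. The 14 models above the limit on only 1 or 2 UV arrays were all not above it in UV replicate 1, while 6 of them were also not above it in UV replicate 3 and 0 in UV replicate 2. Of all probe sets, 84.3%, 88% and 88.8% lay above the limit in UV replicates 1, 2 and 3. Replicate 1 thus had the lowest share over the whole array as well.

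Signal was lost to background on every UV array for 2 models, which lie close together in block 165 of chromosome 5. Model 15 had 850, 1062 and 882 units in the UV samples, against 3936, 3173 and 4584 units in the dark samples. Model 17 had 968, 1030 and 921 units in the UV samples, against 3386, 2741 and 3944 units in the dark samples. Both UV levels are only a bound: measured against the lowest signals above the limit on the UV arrays, model 15 was at least 2.77-fold lower and model 17 at least 2.39-fold lower after UV. Both started dim, and the brightness of the dark samples limits how large a fall could be measured. In the whole array, 101 models detected in the dark were above the limit on none of the UV arrays.

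The lowered models did not fall equally far in the 3 UV samples. Against the dark mean, their median change was -2.16, -1.51 and -1.88 in UV replicates 1, 2 and 3 (mean -1.85 ± 0.327, SD, n = 3). UV replicate 1 had the lowest level of the 3 in 111 models (74.0%) and UV replicate 2 the highest in 136 (90.7%). The order with replicate 1 lowest, replicate 3 between and replicate 2 highest held for 102 lowered models (68.0%), against 15.9% of the models detected in the dark. The 397 models that fell by between 1 and 1.5 also differed between UV samples. Replicate 1 was lowest in 79.1% of them and replicate 2 highest in 63.0%. Their median changes were -1.46, -0.99 and -1.09 in UV replicates 1, 2 and 3. Without scaling, with quantile scaling, with background correction and in the authors' deposited table, replicate 1 was lowest in 106 to 123 models and replicate 2 highest in 132 to 138. Replicate 2 exceeded replicate 1 by a median of 1.53-fold, and by over 2-fold in 17 models.

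The UV samples also spread more widely than the dark samples. The SD of the log2 level had a median of 0.347 among the UV samples and 0.121 among the dark samples, and it was larger in UV for 126 of the 150 (84.0%), against 64.7% of the models detected in the dark. For the 628 models that rose by 1.5 or more the medians were 0.207 among the UV samples and 0.192 among the dark samples, with the larger SD in UV for 50.6%. The rising models also moved farthest in UV replicate 1 (2.29), but UV replicate 3 (1.96) and UV replicate 2 (2.02) were close together. For all models detected in the dark the median SD was 0.123 among the UV samples and 0.0879 among the dark samples. Whether the falls and the rises differ in this was not tested.

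**Figure D3:**
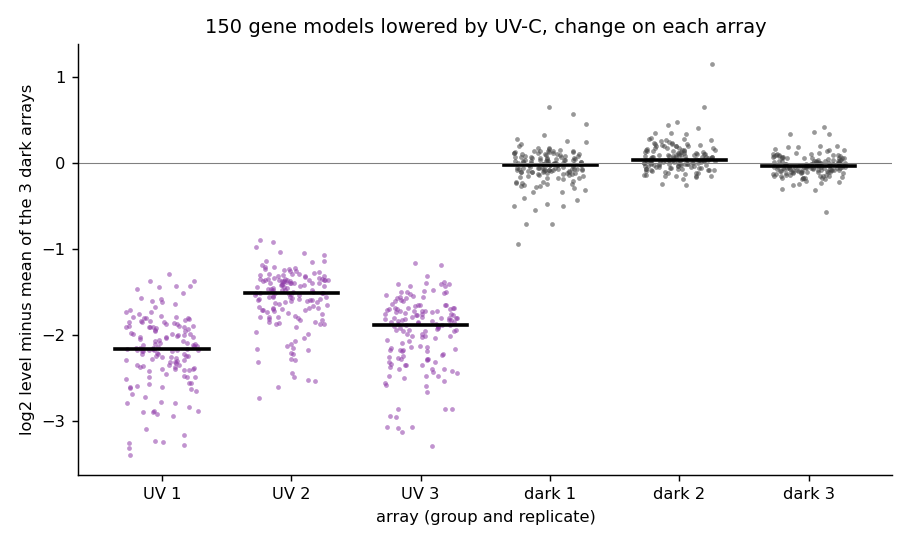
Log2 level of each of the 150 lowered gene models on each array minus the mean of the 3 dark arrays, with UV samples on the left, dark samples on the right and a bar at the median of each array. The medians are -2.16, -1.51 and -1.88 for UV replicates 1, 2 and 3, and UV replicate 2 lies highest of the 3.

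The dark samples of a model could spread as well. Model 750 of block 2 on chromosome 9 had 1237, 2099 and 1729 units in the UV samples, against 3205, 11204 and 5016 units in the dark samples, a change of -1.64. Its dark replicate 2 stood far above the other dark samples, and the model was singled out after its values were seen.

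Models were also chosen anew from part of the arrays, and their fall was read in arrays left out of that choice. The same rule was applied to 2 UV and 2 dark arrays, and the change of the chosen models was read in the remaining UV array against the remaining dark array, for all 9 pairs. Each choice gave 117 to 213 models. Their median change in the left-out pair had a median of -1.81 over the 9 pairs, against -1.81 in the arrays that chose them. That match is only the middle of unlike pairs, since the median of a pair depended on the UV array left out. With UV replicate 1 left out the medians were -2.24 to -2.14. With replicate 2 they were -1.40 to -1.36 and with replicate 3 they were -1.85 to -1.72. At most 4 of the chosen models were not below dark in the left-out pair. The share of all probe sets below dark in such a pair was not computed, so nothing is read from that count. The threshold of -1.5 was passed again by 85.5% to 90.6% of them when replicate 1 was left out, 32.9% to 40.4% for replicate 2 and 67.6% to 72.3% for replicate 3. In these pairs the size of the fall differed between UV samples by more than it did between dark samples. These choices split the same arrays that chose the lowered models, and most of the models they gave were lowered models. The splits are therefore no independent test of the fall of the lowered models.

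The probes of a set gave similar agreement in lowered models and elsewhere. All 150 sets had 4 probes, and all probes were kept on all arrays. The coefficient of variation (SD over mean of the probes in a set) had medians of 0.417 to 0.462 on the UV arrays and 0.435 to 0.448 on the dark arrays, against 0.448 to 0.466 on the UV arrays and 0.442 to 0.455 on the dark arrays for all models detected in the dark. Averaged over the arrays it exceeded 1 in 5 of the 150 lowered models, with a highest value of 1.61, and in 6.11% of the models detected in the dark. Such a set takes most of its brightness from 1 or a few probes.

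Lowered models were found on all 19 chromosomes and on unplaced sequence. They made up 0.588% of the models detected in the dark. Chromosome 9 held the most, 15 (1.44% of its 1042 models detected in the dark), followed by chromosome 1 with 13 (0.992% of 1311) and chromosomes 2 and 14 with 10 each (1.02% of 981 and 0.630% of 1587). On chromosome 3 there were 5, or 11 (1.06% of 1036) with the 6 that were set aside, so the order after chromosomes 9 and 1 rests on that exclusion. Chromosome 16 held 2 (0.191% of 1046), the lowest share of any chromosome. Chosen without dark replicate 2, the most were on chromosome 1 (9.66% of 145), and 13 were on chromosome 9. Unplaced sequence held 7 (0.312% of 2247), and among the 601 detected models assigned to a chromosome without a position the only one that met both conditions was the chromosome 18 model set aside. The numbers are small and neighbouring models are not independent, so no chromosome was tested against another.

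**Figure D4:**
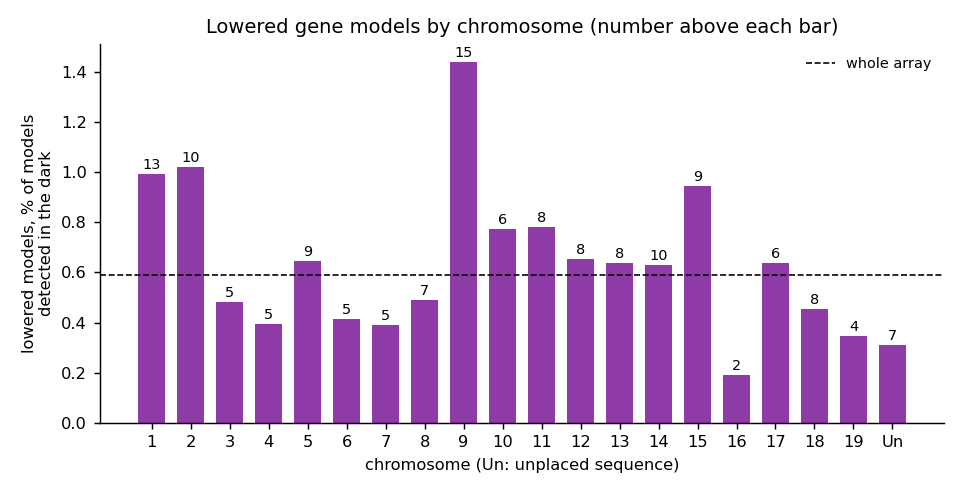
Lowered gene models as a percentage of the models above the background limit on all dark arrays, by chromosome, with the number of lowered models above each bar and the share for the whole array (0.588%) as a dashed line. Chromosome 9 has the tallest bar (1.44%) and chromosome 16 the lowest of the numbered chromosomes (0.191%); the 13 labels for unpositioned sequence, 1 of which held only the model set aside, are not drawn, and the 6 models set aside on chromosome 3 are not counted.

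By annotation source, 141 lowered models carried the prefix JGVV (0.608% of those detected in the dark), 4 carried PDVV (0.436%) and 5 carried GSVIVT (0.360%). Counted separately for each prefix, the 145 with a running number lay in 66 annotation blocks, 29 of which held a single one. The blocks with the most were block 2 of chromosome 9 with 7, and block 46 of chromosome 15, block 0 of chromosome 17 and block 1 of chromosome 18 with 6 each. These made up 1.14%, 2.17%, 0.762% and 0.576% of the models detected in the dark in those 4 blocks, in the order named.

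Some lowered models lay side by side. With the running number taken as the order along a block, 29 of the 145 (20%) had another lowered model as the next one on the array, in 13 pairs and 1 run of 3. Of the numbered models detected in the dark, 0.601% were lowered models. Outside the set, 23793 numbered models detected in the dark were compared, and 208 of these had a lowered model as the next one. The 23793 leave out the block of neighbours on chromosome 3 and the unpositioned sequence of chromosome 18. They are the numbered models outside the set in the comparisons below. Within 3 running numbers, 41 of the 145 had another (28.3%), for which no share over all models is given. The order could not be checked, since no coordinates were used, and signal shared between similar neighbouring copies was not tested. Models in these runs changed by a median of -1.86 and the others by -1.80.

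The pair with the largest falls was on chromosome 9, in block 18. Model 89 had 1820, 4143 and 2646 units in the UV samples, against 22884, 19364 and 20171 units in the dark samples. Model 90 had 1874, 3445 and 2599 units in the UV samples, against 19579, 14244 and 16256 units in the dark samples. In both models UV replicate 2 kept the most signal, and their outer neighbours changed by -0.59 and 0.55.

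The 2 models of a pair could differ in the size of the fall. On chromosome 7, block 31, model 149 fell by 2.80 to a mean of 6654 units in the UV samples against 48963 units in the dark samples. Beside it, model 148 had 1546, 2263 and 1766 units in the UV samples, against 6240, 6428 and 6270 units in the dark samples, a change of -1.64. On chromosome 2, block 12, model 114 had 1383, 2131 and 1522 units in the UV samples, against 8861, 8636 and 7718 units in the dark samples. Model 115 next to it had 9357, 21643 and 12868 units in the UV samples, against 52534, 48428 and 52281 units in the dark samples. Their changes were -2.21 and -1.75.

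Pairs on chromosomes 3 and 5 also differed in size. In block 63 of chromosome 3, model 175 changed by -2.87 and its neighbour 176 by -1.53. In block 20 of chromosome 5, model 421 changed by -2.30 and its neighbour 422 by -1.55, which in the dark was near the top of the scanner's range. The outer neighbours of both pairs changed by -0.04 to 0.44.

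The other pairs were models 57 and 59 of block 3 on chromosome 10, models 50 and 51 of block 84 on chromosome 13, models 155 and 156 of block 6 and models 13 and 14 of block 68 on chromosome 14, models 42 and 45 of block 46 on chromosome 15, models 1113 and 1114 of block 1 on chromosome 18, models 289 and 290 of block 4 on chromosome 6, and models 4 and 5 of block 286 on unplaced sequence. Their changes ran from -2.44 to -1.51. Beside the chromosome 10 pair, model 56 changed by 1.03 in the other direction.

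The run of 3 lay in block 46 of chromosome 15. Model 279 had 967, 1748 and 1231 units in the UV samples, against 5174, 4981 and 4210 units in the dark samples. Model 280 had 1074, 1543 and 1054 units in the UV samples, against 5466, 5688 and 4917 units in the dark samples. Model 281 had 1263, 1359 and 993 units in the UV samples, against 4008, 3731 and 3530 units in the dark samples. All 3 were dimmer than the array median in the dark and near background after UV. The models on both sides, 276 and 282, changed by -1.48 and -0.86 and were both called lower by limma, against 66 of 269 (24.5%) of the other models of the block that were detected in the dark and not in the set. This stretch and the other 3 described next were picked out after the values were seen.

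On chromosome 18, the models on both sides of the pair 1113 and 1114 changed by -1.46 and -1.22. Both were called lower, against 229 of 1034 (22.1%) of the other models of block 1 that were detected in the dark and not in the set.

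Another stretch lay in block 54 of chromosome 9, from model 31 to 53. Of 19 models with the prefix JGVV detected in the dark there, 4 were lowered models. Of the other 15, 11 (73.3%) were called lower by limma and 7 changed by -1 or lower, with a median change of -0.95. In the rest of the block 27 of 97 (27.8%) were called lower and 4 changed by -1 or lower, with a median change of -0.08. Model 31 had 1658, 2153 and 1675 units in the UV samples, against 7250, 7080 and 8339 units in the dark samples. Model 43 had 6985, 10099 and 7177 units in the UV samples, against 30461, 24994 and 28827 units in the dark samples. Models 34 and 41 changed by -1.74 and -1.54. A further lowered model of block 54, number 32 with the prefix PDVV (change -1.69), was ordered separately and is not counted here. The probes of models 31 and 34 disagreed most among all lowered models, with a mean coefficient of variation of 1.47 and 1.61.

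A small block of unplaced sequence, block 286, held 3 lowered models among 11 detected in the dark. Model 4 had 2698, 5202 and 2482 units in the UV samples, against 22271, 17666 and 18800 units in the dark samples. Model 5 had 2991, 5253 and 3220 units in the UV samples, against 17797, 13247 and 16267 units in the dark samples. Model 10 had 3396, 5248 and 2960 units in the UV samples, against 18505, 14421 and 16287 units in the dark samples. UV replicate 2 kept the most signal in all 3 models. Among the 5 other models from 4 to 12, 3 were called lower and 2 changed by -1 or lower, against 23.0% and 1.60% of all numbered models outside the set. In the rest of this block 1 of 3 (33.3%) was called lower and 0 changed by -1 or lower, with a median change of -0.33.

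Around most lowered models the neighbours changed little. The 208 next models that were detected in the dark and were not themselves lowered models had a median change of -0.02, against 0.00 for all numbered models outside the set. By limma 57 of them (27.4%) were called lower, against 23.0% of all numbered models outside the set, and 22 (10.6%) were called higher, against 16.6%. A change of -1 or lower was seen in 12 (5.77%), against 1.60%. The share was 5.53%, 5.51%, 4.35% and 2.16% at 2, 3, 4 and 5 models away. The 12 lay in 9 blocks, and without the blocks on chromosome 9 and unplaced sequence described above they were 9 of 200 (4.50%). A rise of 1 or more was seen in 5 next models (2.40%), against 4.85% of all numbered models outside the set.

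**Figure D5:**
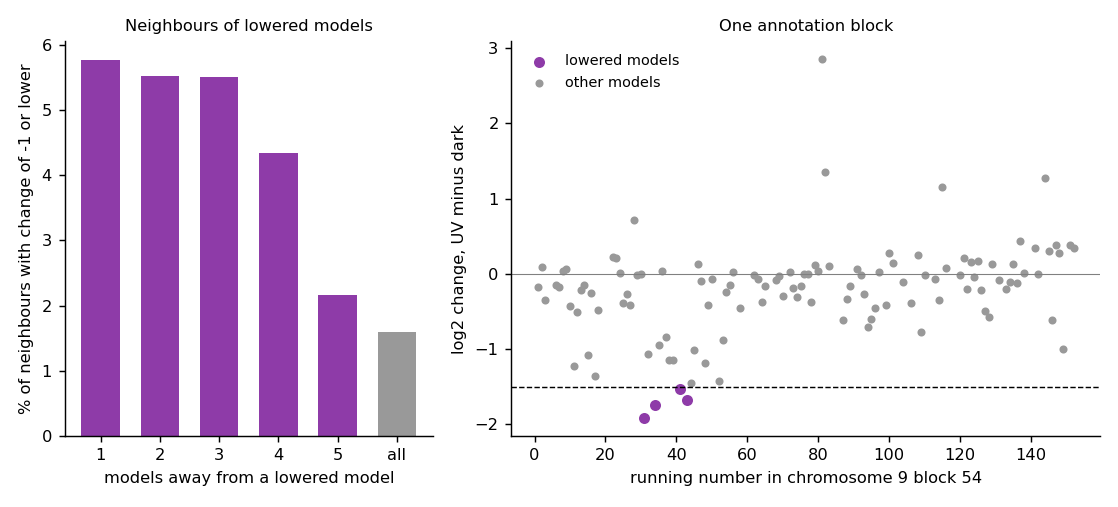
Left, percentage of the neighbours with a log2 change of -1 or lower, by the number of models from a lowered model, with all numbered models outside the set in grey (1.60%); the share is 5.77% next to a lowered model and 2.16% at 5 models away. Right, log2 change (UV minus dark) of the models of block 54 on chromosome 9 with the prefix JGVV, by running number. Their 4 lowered models are in colour and the threshold of -1.5 is dashed. Of the models detected in the dark that changed by -1 or lower, 11 lie between models 31 and 53 and 4 in the rest of the block.

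In the authors' deposited table all 150 lowered models were listed, against 90.1% of the models detected in the dark and 78.2% of all sets. With the log10 values of the authors' deposited table turned to log2, the change of UV minus dark was -1.5 or lower in 150 of them, with a median of -1.83. Differences between arrays in that table follow those of log2 intensity (r = 1.00), so this repeats the choice and is no second measurement.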

How the data were processed

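The members and the lists were chosen with earlier results of these data known. Per the labels' protocols, NimbleGen carried out the Cy3 labelling of total RNA from 3 UV and 3 dark samples. Per the file headers, each deposited array file lists for every set the average perfect-match intensity, which is linear; array medians differed, so no normalization was assumed. It also lists a deposited ratio of SD to mean over a set's probes (coefficient of variation). The authors' deposited table of log10 values covers 23096 sets; its differences between arrays follow those of log2 intensity (r = 1.00), its baseline per set stays unknown, and its column medians are -0.0174, -0.00570 and -0.0121 in UV and -0.000177, 0.00998 and 0.00723 in dark replicates 1, 2 and 3 (set to 0 before use). The build, the annotation release and the image software: not given in the sources used here.

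Intensities were log2-transformed and centred on each array's median for the choice of models. For calls over all 29549 sets, they were background-corrected (normexp, offset 50), quantile-normalized and fitted with lmFit and eBayes in limma 3.58.1 (R 4.3.3), UV against dark, two-sided, with no covariate, Benjamini-Hochberg adjustment and a threshold of 0.05; the fit was tested on simulated data. No p-value is given for models whose choice used this contrast. The 3 arrays per group limit the precision. Models were ordered by running number within each of 1196 blocks, JGVV and PDVV models separately. A naming rule covered the 12 lowest changes (2 by identifier), the 5 brightest, those at background on all UV arrays, those at the threshold and those next to each other; blocks and stretches were added after the values were seen. A fold written as "at least" sets the dark mean of median-centred log2 values against, per UV array, the higher of the model's own signal and the lowest signal above the limit. Alternatives covered scaling, background, limits, thresholds, variance trend, a replicate block and each array left out.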

Additional observations from a re-analysis of the deposited data

How the results depend on the processing

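The number of lowered models was 228 after background correction and quantile normalization, where falls of dim models come out larger, and included all 150; it was 212 without scaling, where the median of all sets shifted to -0.15 in place of -0.01, 156 with quantile scaling and 154 in the authors' table. A threshold of -1 gave 547 models with a median change of -1.27 and a threshold of -2 gave 53 with a median of -2.19, by construction. With the threshold of -1 the median in left-out arrays was -1.05, and 80 models had another as the next one; with -2 only 2 did. With each array left out in turn, 124 (without UV replicate 1) to 204 (without UV replicate 2) models were chosen, 117 to 185 of them above the limit on all UV arrays, the median change of the 150 was -1.97 to -1.69, 22 to 35 had another as the next model, the largest share on 1 chromosome was 8.70% to 11.3%, 149 or 150 of the 150 were called lower, and 3986 (without dark replicate 2) to 5645 falls were called over all sets. With the replicate number as a block, 4821 falls were called, the 150 among them, against 6162 without it. Arrays of the same number had deviations that correlated at -0.04, -0.06 and -0.03, so the numbers were not taken to pair the samples. The background limit of mean plus 3 SD or no limit left 150 models. The comparison of UV array order across scalings was chosen after seeing the data. Dim signal limits the fold of models near background.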
